A study of Mus musculus with 6 samples.

Results

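The genes described here encode the proteins of the cytosolic ribosome, together with a few paralogs of them, in mouse neural progenitor cells. They were taken by gene symbol, as names of the Rpl, Rps, Rplp and Rpsa series, with the autosomal copy Rpl10l left out, and no measured value entered the choice. Of 15095 rows in the expression table, 80 met the rule, 47 of the large subunit and 33 of the small subunit, and 5 of the 80 are paralogs of another ribosomal protein gene (Rpl22l1, Rpl39l, Rpl7l1, Rps27l and Rps4l). PolyA RNA was sequenced from 3 Setd2-KO and 3 wild-type libraries of neural progenitors, which were derived from mouse embryonic stem cells through 4 days as cellular aggregates and a further 4 days with 5 uM retinoic acid. Both genotypes share the HA36CB1 stem cell background and the same differentiation, and Setd2 encodes the methyltransferase that trimethylates lysine 36 of histone H3. The values used are the average log2 CPM, the log2 of a gene's count scaled to a common library size, that the authors computed over all 6 libraries of both genotypes. They carry no value per library, no SD and no n, so the Setd2-KO and wild-type cells are not compared here and the level of Setd2 in each genotype cannot be given. Every difference below is a description without a test.

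The ribosome is built from a large subunit, which joins amino acids into protein, and a small subunit, which reads the messenger RNA. Nearly every ribosomal protein is present in one copy per ribosome, and the genes are among the most abundantly transcribed of dividing cells. Their transcripts typically start with a run of pyrimidines, through which their translation is coupled to growth signals, and many of the genes carry small nucleolar RNAs (snoRNAs), guides for the modification of ribosomal RNA, in their introns. Dividing neural progenitors have to make new ribosomes for each division.

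The averaged libraries had the markers of a neural culture. Of 10 neural progenitor markers, 9 had a row, with levels of 3.56 to 9.82 log2 CPM, Vim being the highest and Fabp7 the lowest. All 5 neuronal markers lay between 7.30 and 9.75 log2 CPM, as high as the progenitor genes. The 5 pluripotency markers lay between -0.19 and 3.71 log2 CPM, the 5 endodermal markers between 2.20 and 4.83 log2 CPM and the 3 mesodermal markers with a row between -0.42 and 3.47 log2 CPM. Neuronal genes thus stood at log2 CPM like those of progenitor genes. These marker levels were not corrected for transcript length, so they compare genes of different length only roughly. In such bulk RNA fewer cells of a type and less RNA per cell cannot be told apart.

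Ribosomal protein transcripts were among the most abundant of the table. The 80 genes had a median of 9.15 log2 CPM, against 4.57 log2 CPM over all 15095 rows, and 79 of the 80 lay above that median. Of the 80, 69 were in the top 5% of all rows and 17 were among the 100 highest rows. Together they held 4.90% of the summed CPM while making up 0.530% of the rows. The large subunit genes held 2.92% and the small subunit genes 1.98%, and the 5 paralogs added 0.0253%, a share already counted within their subunits. Before any correction for length, the highest was Rps2, a small subunit protein near the entry of the messenger RNA, with 1887 CPM. It was followed by Rpl4 with 1812 CPM, Rpsa with 1615 CPM and Rplp0 with 1596 CPM. The other end of the range was set by the paralogs. Every one of the 75 genes that are not paralogs had at least 7 log2 CPM, and the 5 genes under 7 log2 CPM were the 5 paralogs.

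**Figure D1:**
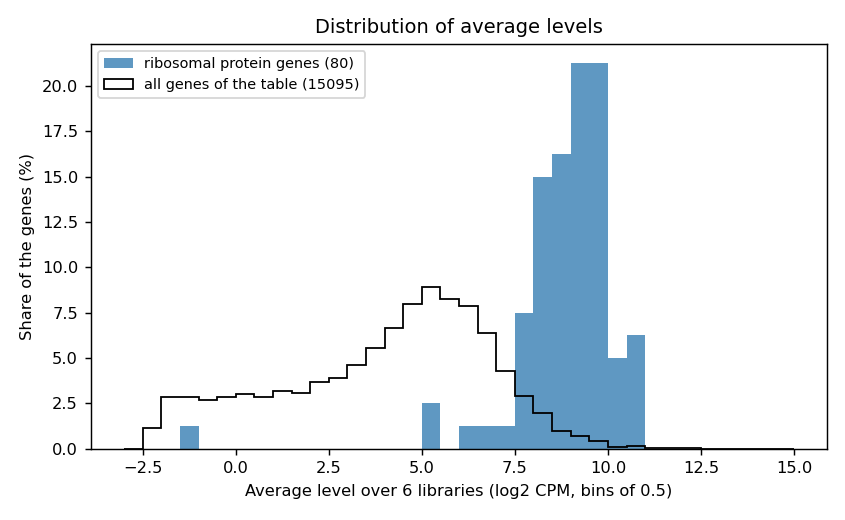
Distribution of the average log2 CPM over 6 libraries (x axis, bins of 0.5) as a share of the genes (y axis, %), for the 80 ribosomal protein genes (filled) and all 15095 genes of the table (line). The ribosomal protein genes centre on 9.15 log2 CPM against 4.57 log2 CPM for all genes, and the few bars under 7 are the paralogs.

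A longer transcript yields more reads per molecule, so genes were compared per kilobase of transcript. The length was that of the canonical transcript of GENCODE vM39 on GRCm39, which is a later annotation than the one used by the authors. On this scale the 80 genes had a median of 8.89 log2 CPM per kb, against 2.77 log2 CPM per kb over the 15066 rows with a length. Several canonical transcripts of this annotation are far longer than a typical ribosomal protein messenger. For 12 of the 80 genes they exceeded 2000 bases, with Rpl37 at 6111 bases for a coding sequence of 291 bases and Rps15a at 5182 bases for 390 bases. A long canonical transcript lowers the level per canonical kb. Among genes that are not paralogs, Rpl37 at 5.60 and Rps15a at 5.96 were the lowest of their subunits on this scale. Not all paralogs lay under them. In the large subunit Rpl39l was lower, at -1.16, but Rpl22l1 at 5.98 and Rpl7l1 at 6.22 were higher than Rpl37. In the small subunit Rps4l was lower, at 5.89, but Rps27l at 6.22 was higher than Rps15a. Not every long transcript put its gene as low as Rpl37 or Rps15a. Rpl15, with 2336 bases, had 8.13 and Rpl5, with 3646 bases, had 7.85 log2 CPM per canonical kb, both within 2-fold of their subunit's median. The level per kb of coding sequence is therefore given beside it, a measure that was added after the values had been seen and that was one of 6 length measures tried.

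Per kb of coding sequence the transcript levels of the ribosome were close together. Over the 75 genes without the paralogs the SD over genes was 0.53 on the log2 scale per coding kb, against 1.08 per canonical kb and 0.81 with no correction for length. Read level followed coding length across these genes, with a slope of 1.03 of log2 CPM on log2 coding length, Pearson's r of 0.76 and Spearman's rho of 0.76 over 75 genes, which share libraries and are not independent replicates. With canonical transcript length the corresponding r was 0.23 and rho 0.29. The plot of level against coding length shows the 75 genes as a band with the 5 paralogs under it. Within 2-fold of the median of their subunit were 72 of the 75 genes per coding kb and 52 of the 75 per canonical kb. Rplp1 lay above the band per coding kb and Rpl29 under it. Nearest inside the band stood Rpl31, 0.96 above its subunit's median, and Rpl9, at -0.84 relative to it.

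**Figure D2:**
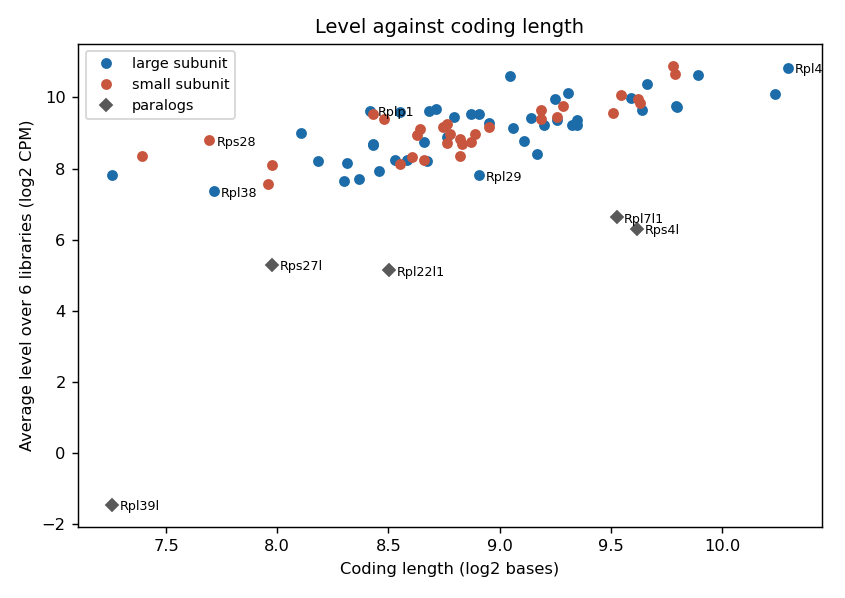
Average level over 6 libraries (log2 CPM, y axis) against coding length (log2 bases, x axis) for large subunit genes (blue), small subunit genes (red) and paralogs (grey diamonds). The 75 genes that are not paralogs lie along a slope of 1.03, and the 5 paralogs all lie under 7 log2 CPM.

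In the large subunit the highest level per canonical kb belonged to Rplp1, a protein of the acidic stalk that recruits elongation factors. It had 10.50 log2 CPM per canonical kb and 11.18 per coding kb. Rplp0, the base of the same stalk, had 10.19 and 10.71 on these scales. The third stalk protein, Rplp2, stood lower, at 8.73 per canonical kb and 10.23 per coding kb, and so was at the median of the large subunit on the first scale and 0.18 above it on the second. The stalk proteins are exceptional in the ribosome because Rplp1 and Rplp2 are present in more than one copy, bound as dimers to Rplp0.

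The other large subunit genes at the top were core proteins. Rpl13 had 10.44, Rpl23a 10.36 and Rpl7 10.16 log2 CPM per canonical kb, followed by Rpl8 at 9.90, Rpl13a at 9.88 and Rpl18 at 9.87. Rpl23a lies at the exit of the tunnel through which the new protein leaves, and Rpl8 lies close to the catalytic centre. Rpl4, which lines the tunnel, and Rpl7a, at 9.84 and 9.78, completed the 10 genes over 2-fold above the median of 8.73.

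At the lower end of the large subunit, apart from the paralogs, stood Rpl37, Rpl29, Rpl39, Rpl34, Rpl37a and Rpl31, with 5.60, 6.08, 6.89, 6.94, 7.09 and 7.55 log2 CPM per canonical kb. All 6 were over 2-fold under the median of the subunit. Per coding kb the picture changed for most of them. Rpl31 had 11.01, Rpl37a 10.86 and Rpl39 10.52 log2 CPM per coding kb, above the median of 10.05, Rpl37 was close to it with 9.99, and Rpl34 with 9.45 was less than 2-fold under it. Rpl29 alone stayed over 2-fold under the median, with 8.87 per coding kb and 224.9 CPM. Rpl29 is a small, basic protein that is not essential for life in mice.

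In the small subunit Rps2 was again first, with 10.75 log2 CPM per canonical kb, the only small subunit gene over 2-fold above its median of 9.25. Rps6, the protein phosphorylated by the S6 kinases downstream of mTOR, followed with 10.22 per canonical kb and 10.48 per coding kb. Rps28 had 10.18, Rps15 10.14, Rps12 10.05, Rps26 10.02, the X-linked Rps4x 9.98 and Rps3a1 9.88 log2 CPM per canonical kb. Rps28 and Rps26, which lie close together near the exit of the messenger RNA, had close levels per coding kb, 11.07 and 11.06, and Rps2 had 11.07. Rpsa, which is also known as the laminin receptor precursor, had 9.70 per canonical kb and 10.83 per coding kb.

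Among the lowest small subunit genes that are not paralogs were Rps15a, Rps20, Rps27a, Rps25 and Rps19, with 5.96, 7.50, 7.94, 7.95 and 8.07 log2 CPM per canonical kb. Rps27a is made as a fusion with ubiquitin, and mutations of the human gene of Rps19 cause Diamond-Blackfan anaemia. Per coding kb all 31 small subunit genes without the paralogs lay within 2-fold of the median of 10.17, including Rps15a at 9.69 and Rps20 at 10.88. No gene that is not a paralog therefore stood apart in the small subunit by coding length, whereas 7 did by canonical length.

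**Figure D3:**
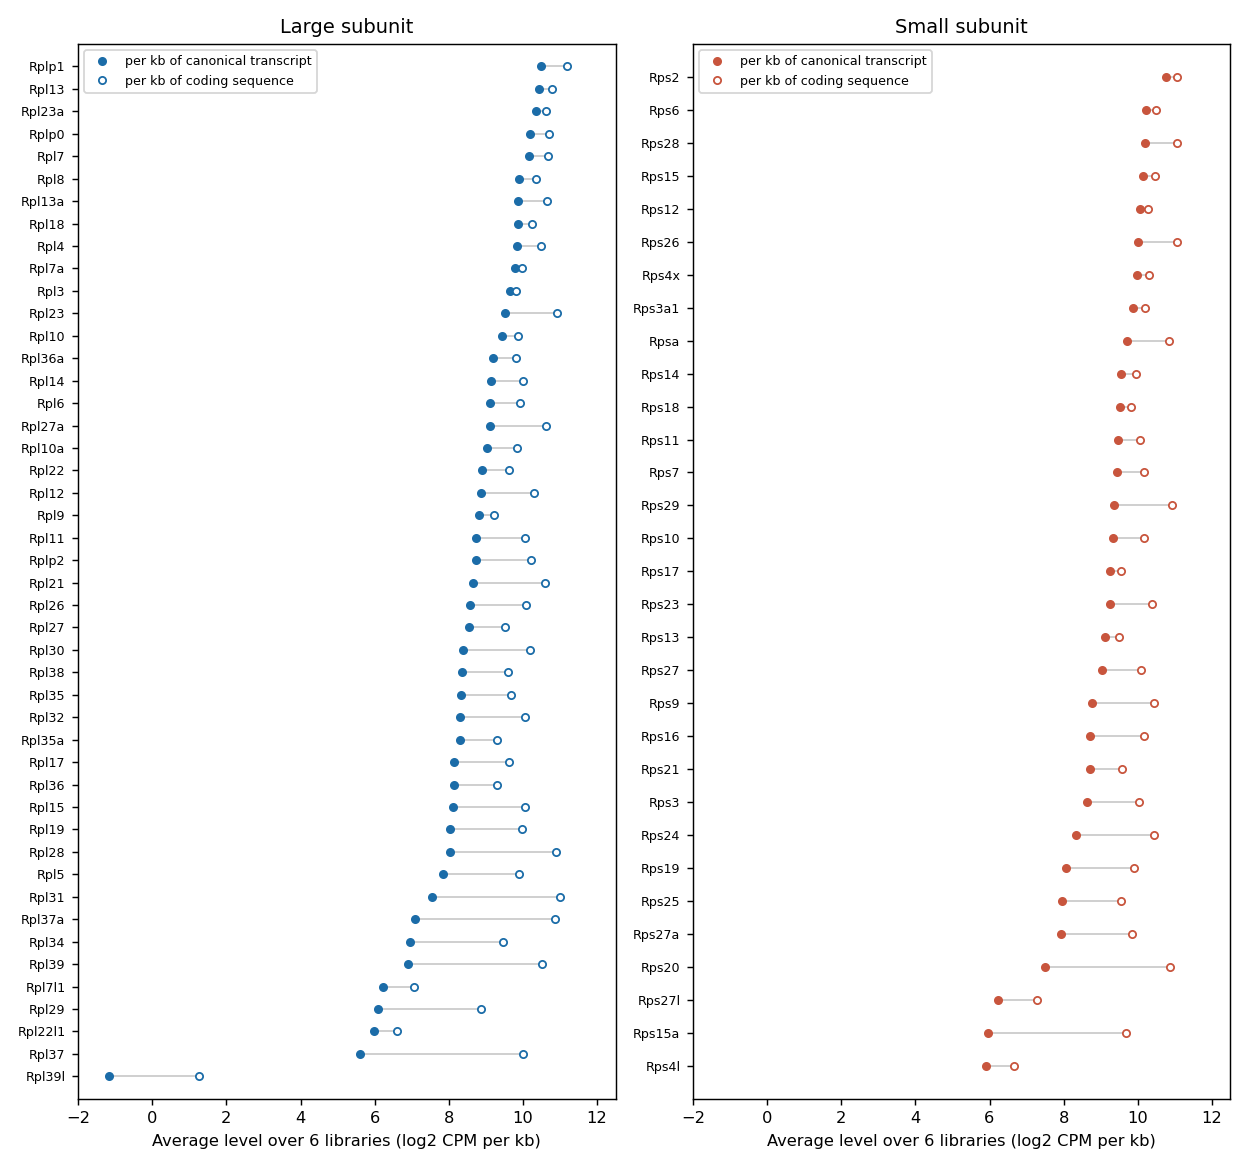
Average level over 6 libraries (log2 CPM per kb, x axis) of each large subunit gene (left, blue) and small subunit gene (right, red), per kb of canonical transcript (filled) and of coding sequence (open), joined by a grey line and ordered by the filled points, with a few genes not shown. Long grey lines, as for Rpl37 and Rps15a, mark canonical transcripts far longer than their coding sequence.

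The order of the subunits depended on how length was treated. The large subunit had a median of 8.73 and the small subunit of 9.25 log2 CPM per canonical kb, a difference of -0.52, with interquartile ranges of 8.08 to 9.51 and 8.34 to 9.82 that overlap for most of their length. Per coding kb the medians were 10.05 and 10.17, a difference of -0.12. With no correction for length the order was turned round, with 9.21 log2 CPM in the large and 8.98 log2 CPM in the small subunit, a difference of 0.24. The sign of the difference thus changed with the treatment of length, and without values per library no error can be put on it.

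The paralogs were all lower than the genes they resemble. Rps27l, in humans known as a target of p53, had 39.3 CPM against 276.5 CPM of Rps27, a difference of -2.83 per canonical kb and -2.81 per coding kb. Rpl22l1, whose level Rpl22 is known to hold down in mice, had 35.3 CPM against 304.4 CPM of Rpl22, with differences of -2.92 and -3.03 on the same scales. Rpl7l1, which resembles Rpl7, had 99.4 CPM against 1331 CPM, with differences of -3.94 and -3.61. Rps4l, the only member with a single exon in its canonical transcript, had 79.3 CPM against 999.3 CPM of Rps4x, with differences of -4.09 and -3.65. These 4 paralogs were expressed well above the lowest rows of the table, with Rpl7l1 at percentile 83.8, Rps4l at 79.1, Rps27l at 62.4 and Rpl22l1 at 59.7 of all rows by CPM.

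Rpl39l was different in degree. This gene, best known for its expression in the male germ line of mice, had 0.366 CPM, at percentile 4.26 of all rows, against 223.9 CPM of Rpl39. The difference was -8.05 per canonical kb and -9.26 per coding kb. Averages this low include the small count that is added before logarithms are taken, so the size of the difference is less sure than that of the other pairs. Per coding kb Rpl39l had 1.26 log2 CPM and Rps4l, Rpl22l1, Rpl7l1 and Rps27l had 6.66, 6.61, 7.07 and 7.29, all under the 8.87 of Rpl29, the lowest gene that is not a paralog.

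**Figure D4:**
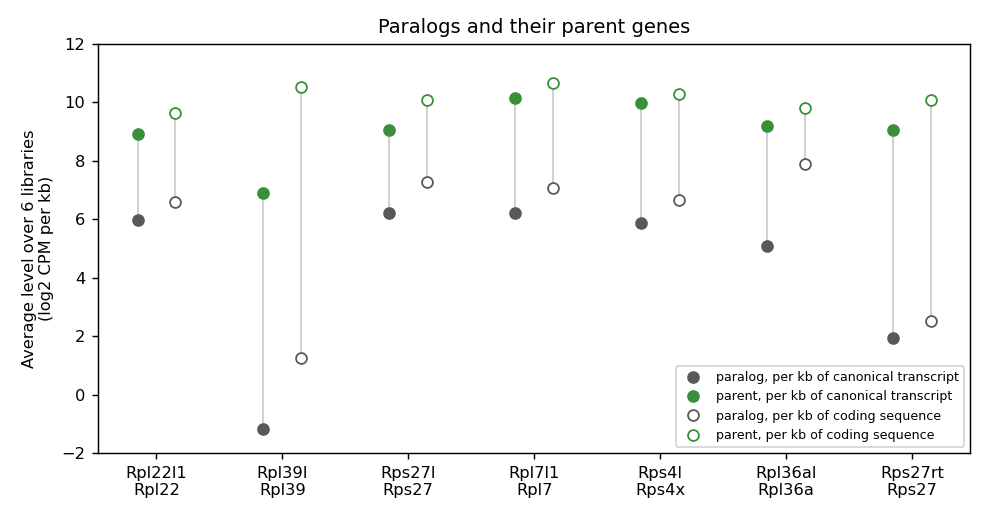
Average level over 6 libraries (log2 CPM per kb, y axis) of each paralog (grey) and its parent gene (green), per kb of canonical transcript (filled) and of coding sequence (open). Every paralog lies under its parent on both scales, by 9.26 per coding kb for Rpl39l and by 2.81 for Rps27l.

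Whether reads can be told apart within a pair depends on their sequences. The coding sequences of Rpl39l and Rpl39 are shown because this pair had the widest gap and because its members encode nearly the same short protein. Rpl39l lies on chr16:9949671-9992780 (plus strand) and Rpl39 on chrX:36345092-36349130 (minus strand) of GRCm39. Capitals mark the 23 of 153 positions at which they differ, an identity of 85.0%.
Rpl39l: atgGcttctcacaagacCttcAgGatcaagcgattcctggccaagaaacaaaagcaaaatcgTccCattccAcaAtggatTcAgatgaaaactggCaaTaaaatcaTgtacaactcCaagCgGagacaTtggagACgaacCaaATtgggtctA
Rpl39: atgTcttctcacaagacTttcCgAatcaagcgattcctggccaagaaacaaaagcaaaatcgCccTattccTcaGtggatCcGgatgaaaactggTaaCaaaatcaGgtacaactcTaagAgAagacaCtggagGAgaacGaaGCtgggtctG
The differences are spread along the sequence, and none of the stretches of 100 bases of Rpl39l is found in Rpl39.

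Rps27l lies on chr9:66853340-66856808 (plus strand) and Rps27 on chr3:90119819-90120977 (minus strand) of GRCm39. This pair is shown because it had the smallest gap, per canonical and per coding kb, among the paralogs that met the rule. With the union of exons as the length its difference was -3.39 and that of Rpl22l1 and Rpl22 was smaller, -2.15. It differs at 60 of 252 coding positions, again in capitals, an identity of 76.2%.
Rps27l: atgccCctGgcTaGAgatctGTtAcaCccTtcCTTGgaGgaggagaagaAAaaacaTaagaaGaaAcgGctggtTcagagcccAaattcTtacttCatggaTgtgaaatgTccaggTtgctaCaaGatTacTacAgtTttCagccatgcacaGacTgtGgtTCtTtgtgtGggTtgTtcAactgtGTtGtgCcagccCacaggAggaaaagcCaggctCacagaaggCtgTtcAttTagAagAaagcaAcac
Rps27: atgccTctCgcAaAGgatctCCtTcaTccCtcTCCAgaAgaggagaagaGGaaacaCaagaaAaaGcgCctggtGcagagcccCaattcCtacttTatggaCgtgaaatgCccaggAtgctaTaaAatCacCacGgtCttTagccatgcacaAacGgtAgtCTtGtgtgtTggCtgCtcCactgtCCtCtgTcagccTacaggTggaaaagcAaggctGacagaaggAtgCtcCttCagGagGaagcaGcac
The other pairs were further apart or similar, with identities of 66.9% for Rpl22l1 and Rpl22, 51.7% for Rpl7l1 and Rpl7 and 79.7% for Rps4l and Rps4x. No stretch of 100 bases was shared within any of these 5 pairs. Coding stretches of this length were, however, shared with transcripts of genes outside the pairs. The share was 55.7% for Rpl22l1, 100% for Rps27, 44.2% for Rps4x, 41.8% for Rpl7 and 16.7% for Rpl39. It was 3.76% for Rpl7l1 and 2.04% for Rps4l, and Rpl39l, Rps27l and Rpl22 shared none.

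A further 2 copies have names outside the rule. Rpl36al had 75.02 CPM against 283.9 CPM of Rpl36a, with differences of -4.09 per canonical kb and -1.92 per coding kb and a coding identity of 87.7%. Rps27rt, a gene with no introns on chromosome 9, had 1.44 CPM against 276.5 CPM of Rps27. Its coding sequence is identical to that of Rps27 (100%), so that reads of the coding part of these genes cannot be told apart and the split of reads between them is uncertain. Other ribosomal proteins with names outside the rule had levels like those of the 75. Fau, which fuses a ubiquitin-like protein with Rps30, had 8.35 log2 CPM, and Rack1, a scaffold protein of the small subunit, had 9.94 log2 CPM.

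Near-identical copies touch most of the family. Of the 80 genes, 55 shared over 50% of their coding stretches of 100 bases with transcripts of other genes of the annotation, 24 shared all of them and 7 shared none, with a median of 71.1%. Among the 7 without shared stretches were Rpl22, Rpl32, Rpl39l, Rps21, Rps3 and Rps27l, which were named after their values were seen. Among 83 pseudogene rows of the table, 19 shared over 50% of their stretches of 31 bases with 1 of the 80 genes, and together these held CPM equal to 3.23% of the CPM of the family. The highest was LOC105244208, identical in all stretches to Rps6, with 756.4 CPM against 1070 CPM of Rps6 itself, and the next was LOC108167922, identical in all stretches to Rpl27, with 183.6 CPM. Levels of Rps6 and Rpl27 thus depend on how the reads of these copies were assigned, and the level of Rps6 would be higher if those reads were counted to it.

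Features of the genes that the rule did not use were examined next. An annotated snoRNA on the same strand lay within 30 of the 80 genes, or 37.5%, against 225 of 14612 protein-coding rows, or 1.54%. The 30 comprised 20 large and 10 small subunit genes and none of the paralogs, and held 59 snoRNAs in all. Rpl4 held the most, 5, and Rpl13a held 4. Genes with a snoRNA had a median of 10.25 log2 CPM per coding kb, against 9.99 for genes without, a group that includes the paralogs.

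The start of the transcript was examined in the RefSeq promoter windows of GRCm38.p6, which had an entry for 59 of the 80 genes. A pyrimidine start was defined as a C followed by 4 bases that are each C or T, beginning within 5 bases of the annotated start, on the transcribed strand only. It was found for 29 of the 59 genes, or 49.2%, against 21.2% of the 27025 genes with a window. With the match required exactly at the annotated start the shares were 22.0%, or 13 genes, and 3.01%. Several starts of 30 bases are shown to make this feature visible, with the annotated start at position 16 and the matched bases in capitals. The first 4 are genes with a match exactly at the annotated start, Rps27 (chr3:90213634-90213663), Rps6 (chr4:86857353-86857382), Rpl35 (chr2:39005117-39005146) and Rps10 (chr17:27635230-27635259), all on the minus strand. They are followed by the paralogs Rps27l (chr9:66946071-66946100), Rpl22l1 (chr3:28805493-28805522) and Rpl39l (chr16:10170213-10170242) on the plus strand and Rpl7l1 (chr17:46782642-46782671) on the minus strand.
Rps27: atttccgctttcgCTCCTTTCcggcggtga
Rps6: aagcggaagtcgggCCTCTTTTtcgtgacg
Rpl35: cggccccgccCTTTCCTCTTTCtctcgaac
Rps10: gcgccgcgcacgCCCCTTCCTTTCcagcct
Rps27l: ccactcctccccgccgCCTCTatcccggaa
Rpl22l1: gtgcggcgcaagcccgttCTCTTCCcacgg
Rpl39l: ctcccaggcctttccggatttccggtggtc
Rpl7l1: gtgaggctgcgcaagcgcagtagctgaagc
Of these 4 paralogs, Rps27l and Rpl22l1 had a match and Rpl39l and Rpl7l1 had none in the window. Rps27l has a second annotated start, which held no match. Genes with a pyrimidine start had a median of 8.73 log2 CPM per canonical kb, against 9.08 for genes with a window but no match. Per coding kb the order was turned round. The middle gene of those with a match was Rps10 at 10.17, and the middle genes of those without were Rps3 at 10.02 and Rpl11 at 10.05. Both groups include paralogs.

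The 80 genes were spread over 19 chromosomes, with 14 on chromosome 7 and 4 on chromosome X. They are short genes, with a median of 454.5 coding bases and 5 exons, against 1398 coding bases and 8 exons over all rows with such a value. A list of 17 other genes of translation was set beside the family. Eef1a1, which brings aminoacyl-tRNA to the ribosome, had 12.29 log2 CPM per canonical kb, above every ribosomal protein gene. Tpt1 had 10.44 and Eef2, which moves the ribosome along the messenger, 10.36 per canonical kb, within the upper range of the family on that scale. Per coding kb Eef1a1 had 12.66 and Tpt1 11.71, both above every ribosomal protein gene, and Eef2 had 10.62. The lowest per canonical kb was Eef1d, an exchange factor of Eef1a1, at 5.45 log2 CPM per canonical kb. On this scale, which divides by its canonical transcript of 4234 bases, Eef1d lay under each of the 75 genes that are not paralogs. Per coding kb the lowest of the list was Naca at 6.12, with Eef1d at 6.55. These values rest on coding lengths of 6561 bases for Naca and 1980 bases for Eef1d. A long coding length lowers the level per coding kb, and which coding form the cells used was not tested.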

How the data were processed

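PolyA RNA of 3 Setd2-KO and 3 wild-type neural progenitor libraries was sequenced, and the authors aligned reads with STAR, quantified genes and normalized them with edgeR. The submitters' processing notes name the builds NCBIM37 and mm9, whereas the study's methods name GRCm39. The deposited table gives for each gene the average log2 CPM over the 6 libraries. Its other number columns hold the authors' comparison of the genotypes (fold changes, p-values and false discovery rates), and none of these was used. Depth per library is not given in the table used, and no interval could be computed. The study's methods describe removing genes of low expression before the comparison, and no further filter was applied to the deposited values. Medians and percentiles over all rows are thus over the genes kept by the authors, not over all genes of the genome.

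Genes were matched by Ensembl identifier without version to GENCODE vM39, 15066 of 15095 rows and all 80 ribosomal protein genes, none of which had the same identifier version. The level per kb was log2 CPM minus log2 of the canonical transcript length in kb. CPM is 2 to the power of the average log2 CPM. Coding length was added after values were seen, at first from the canonical transcript. It was then redefined for 6 genes, with the longest CCDS-tagged coding sequence where the canonical transcript of a gene carried no such tag, because some canonical coding sequences were longer than those of CCDS. Coding identity came from global alignment (Biopython 1.88) of nucleotide sequences, in place of a planned protein alignment. Named genes were the 8 highest and 8 lowest of each subunit per canonical kb, all over 2-fold from its median, paralogs with parents, the stalk proteins and Rpsa, genes outside the rule, and the 3 highest and the lowest translation genes. Rpl10l was left out by the rule. A few other genes, and the planned share with genes outside the rule added, are not reported here. Scripts were tested on simulated data. The genes and lists were chosen with earlier results of these data known.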

Additional observations from a re-analysis of the deposited data

How the results depend on the processing

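The values are averages without replicates, so no error stands behind any of them, replicates could not be left out in turn and changes between settings are given as they are. No paired analysis was possible because the table used holds no values per library.

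The large minus small subunit difference of -0.52 per canonical kb was -0.038 with the union of exons, -0.66 with the canonical length less the read length, -0.55 without the paralogs and -0.51 over genes of at least 5 log2 CPM. It was reversed to 0.24 with no correction for length. Of the settings added after the data were seen, it was -0.12 by coding length, -0.11 by coding length without the paralogs and -0.16 by the coding length of the canonical transcript, the definition used at first, under which the SD over 75 genes was 0.52, the slope on length 1.13 and 72 of 75 genes lay within 2-fold of their subunit's median. Each paralog stayed under its parent in every setting run. With the union of exons, no length correction, the canonical length less the read length, coding length and canonical coding length, in this order, the difference was -2.15, -3.11, -2.87, -3.03 and -3.03 for Rpl22l1, -7.97, -9.26, -7.92, -9.26 and -8.62 for Rpl39l, -3.39, -2.81, -2.83, -2.81 and -2.81 for Rps27l, -3.32, -3.74, -3.96, -3.61 and -3.61 for Rpl7l1, -3.29, -3.66, -4.14, -3.65 and -3.65 for Rps4l, -2.68, -1.92, -4.43, -1.92 and -1.92 for Rpl36al, -6.05, -7.59, -6.91, -7.59 and -7.59 for Rps27rt. The share of 4.90% of the summed CPM was 4.87% without the paralogs, 10.8% of the CPM per canonical kb and 10.3% of the CPM per coding kb. The share of genes with a pyrimidine start was 22.0% with the match exactly at the start. The shares of snoRNA hosts and of pyrimidine starts changed little without the paralogs, to 40% and 49.1%. Which transcripts the cells used was not tested, and the annotation is not the one the reads were counted on.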
